A study of Mus musculus with 4 samples.

Results

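The V segments of the immunoglobulin heavy-chain locus (Ighv) were examined in polarized CD4+ T-cell cultures of WT and Mek1/2-tKO mice. Members were all genes whose symbol was Ighv followed by a digit, and the number after Ighv gave the V family. This rule found 185 of the 54752 counted genes, in 16 families. The mice labelled Mek1/2-tKO carried Cd4-Cre together with floxed Map2k1 and Map2k2, the genes of the kinases MEK1 and MEK2, and the WT mice were littermate controls, all on a C57BL/6 background. Because Cd4-Cre acts in T cells, the design deletes both genes in the T lineage only, and deletion in other cells of the culture is not part of the model. From spleens of each genotype, naïve CD4+ T cells were sorted, stimulated through CD3 and CD28 under conditions that favour T follicular helper (Tfh) cells, and resorted as viable cells on day 3. Both genotypes went through this same culture, and each gave 2 RNA-seq libraries, so 4 libraries were compared, without an untreated group. Nothing in the labels says that replicates came from separate mice or cultures, so p-values measure the spread between these libraries, which may be technical.

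A heavy-chain variable exon is assembled in developing B cells when the RAG recombinase joins a V, a D and a J segment. Its transcript is then spliced to a constant exon, first Ighm and Ighd, and after class switching to a Ighg, Ighe or Igha exon. T cells rearrange their receptor genes and normally make no immunoglobulin heavy chain, so Ighv transcripts are used as a sign of B-lineage RNA. V segments fall into families by sequence, Ighv1 being the largest in the mouse. Ighv11 and Ighv12 are known for antibodies to phosphatidylcholine made by B-1 cells, a self-renewing B-cell subset.

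The members lay on chromosome 12 between positions 113572927 and 116010093 (GRCm38), with the segments nearest to the D segments at the lowest coordinates. The GENCODE annotation typed 113 as V genes, 70 as V pseudogenes and 2 as other immunoglobulin V entries, which are plus-strand second identifiers of Ighv5-8 and Ighv1-13. Ighv1 held 93 members, Ighv5 held 22, Ighv8 held 16 and Ighv2 held 11, while the other 12 families had between 1 and 8 members. Reads were found on 121 members in at least 1 library, and 64 members, 8 of them V genes, were at 0 in all 4 libraries. A total of 83 members were counted in every library, 22 were counted in a Mek1/2-tKO library but in no WT library, and 3 in a WT library but in no Mek1/2-tKO library. Such counts depend on the number of Ighv reads, 2176 and 2327 in WT and 10762 and 13064 in Mek1/2-tKO. The same share over all genes was not taken, so they are a description only.

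The coding sequence shows what sets the families apart and where single segments are harder to separate by short reads. For the segments on which the usage results turn, the last 150 coding bases are shown 5′ to 3′ (GENCODE transcripts, GRCm38, minus strand). Capitals run from the conserved cysteine codon TGT, which precedes the third complementarity-determining region, to the end of the germline segment. Ighv1-26 and Ighv9-3 were the segments with the most reads, Ighv4-1 had the largest usage increase among segments with at least 100 counts, Ighv8-8 and Ighv12-3 were the segments whose usage fell, and Ighv14-2 is a comparator whose usage did not pass the test.
Ighv1-26, chr12:114788372-114788521: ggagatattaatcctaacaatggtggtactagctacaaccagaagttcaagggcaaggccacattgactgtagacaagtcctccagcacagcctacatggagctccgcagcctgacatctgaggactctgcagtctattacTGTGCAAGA
Ighv9-3, chr12:114140692-114140841: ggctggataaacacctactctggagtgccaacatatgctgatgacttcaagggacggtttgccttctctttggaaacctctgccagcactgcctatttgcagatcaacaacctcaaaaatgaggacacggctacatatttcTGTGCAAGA
Ighv4-1, chr12:113948282-113948431: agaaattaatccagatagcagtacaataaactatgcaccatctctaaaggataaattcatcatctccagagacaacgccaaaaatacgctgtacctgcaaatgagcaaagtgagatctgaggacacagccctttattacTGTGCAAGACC
Ighv8-8, chr12:115294062-115294211: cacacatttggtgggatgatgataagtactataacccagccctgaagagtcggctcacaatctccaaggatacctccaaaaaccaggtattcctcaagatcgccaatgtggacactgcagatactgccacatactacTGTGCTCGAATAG
Ighv12-3, chr12:114366521-114366670: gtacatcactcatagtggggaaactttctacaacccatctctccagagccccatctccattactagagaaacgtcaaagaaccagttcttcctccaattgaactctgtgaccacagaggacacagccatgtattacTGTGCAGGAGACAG
Ighv14-2, chr12:113994469-113994618: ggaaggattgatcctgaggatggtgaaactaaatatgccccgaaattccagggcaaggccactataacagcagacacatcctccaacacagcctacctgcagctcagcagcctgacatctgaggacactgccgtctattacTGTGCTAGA
Of the 113 V genes, 111 had such a cysteine codon beginning within the last 17 coding bases, and in 65 the distance was 9 bases. The median identity of coding sequences was 84.3% between V genes within Ighv1 and 59.0% between those and V genes of other families.

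Within families, some segments were nearly the same. The nearest other member was more than 95% identical for 51 of the 113 V genes, and 8 V genes held a 150-base window that another member also held. In 0 V genes were all such windows shared. Only reads that mapped uniquely were counted, so a near-identical pair can lose reads or share them unevenly. Ighv1-72, the segment of the well-known antibody response to the hapten nitrophenyl in C57BL/6 mice, and Ighv1-62-3 differed at 3 bases, shown in capitals over the last 300 coding bases.
Ighv1-72, chr12:115757984-115758283: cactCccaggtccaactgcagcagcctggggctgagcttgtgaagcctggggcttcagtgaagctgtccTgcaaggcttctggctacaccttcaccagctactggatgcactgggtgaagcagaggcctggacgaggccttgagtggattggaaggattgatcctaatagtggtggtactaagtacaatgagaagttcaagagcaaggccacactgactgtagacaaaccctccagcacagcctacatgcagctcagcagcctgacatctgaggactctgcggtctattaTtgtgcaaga
Ighv1-62-3, chr12:115460999-115461298: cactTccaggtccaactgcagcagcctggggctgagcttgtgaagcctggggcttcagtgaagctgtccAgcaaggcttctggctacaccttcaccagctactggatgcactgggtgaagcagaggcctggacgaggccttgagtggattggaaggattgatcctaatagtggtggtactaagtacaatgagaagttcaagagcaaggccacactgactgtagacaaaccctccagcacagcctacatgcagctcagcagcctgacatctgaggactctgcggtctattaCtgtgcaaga
Counts on Ighv1-72 were 51 and 34 in WT and 288 and 396 in Mek1/2-tKO, and those on Ighv1-62-3 were 0, 0, 9 and 6. Ighv11-2 took 31, 17, 71 and 70 counts and its close copy Ighv11-1 took 0, 0, 0 and 4, and that pair differed at 4 bases. Windows of 150 bases that another member also held made up 28.7% of Ighv1-72 and 27.7% of Ighv1-62-3. They made up 4.17% of Ighv11-2 and 6.37% of Ighv11-1, so most windows of these segments were not shared. The part of mapping in the low counts of the copies was not tested. Values of single segments with such a copy are therefore less certain than family sums.

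The 4 libraries held 16330802 to 18931090 counts. Map2k1 was lower in the libraries labelled Mek1/2-tKO (log2 fold change -0.86, SE 0.08, edgeR quasi-likelihood test with Benjamini-Hochberg adjustment, adjusted p = 1.29e-06), whereas Map2k2 was not lower (0.15, adjusted p = 0.126). Gene counts add all exons, and the floxed exons are not given in the sources used here, so the Map2k2 count does not check the label. Cd4 itself fell from 293 ± 5.35 to 21.9 ± 4.48 CPM (counts for every 1000000 of the TMM-scaled library size, mean ± SD, n = 2), and of 12 alpha-beta T-cell markers 6 were lower, 1 was higher (Thy1) and 5 did not pass the test. Of all rows of the fit with segments as rows, 16.4% were called lower and 19.3% higher, a call being an adjusted p below 0.05 with a fold change of at least 1.5. All 9 NK-cell markers and all 9 tested of 11 myeloid markers were higher in the Mek1/2-tKO libraries, summed to 148 and 149 against 856 and 937 CPM and to 43.5 and 44.0 against 277 and 346 CPM. The myeloid sum was mostly Ly6c2, at 39.0 and 37.9 CPM in WT and 313 and 250.0 CPM in Mek1/2-tKO, and the other 10 markers together came to 5.08 and 5.60 against 32.7 and 27.2 CPM. Among the defining myeloid markers, Itgam and Csf1r had at most 8 and 36 counts in any library. Lyz2 had 8 and 12 counts in WT and 158 and 117 in Mek1/2-tKO, and Adgre1 had 0 and 0 against 66 and 83. The part of these shifts in the Ighv values was not tested.

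Reads on V segments were present in both genotypes and were 6.01-fold more abundant in the Mek1/2-tKO libraries. Summed over all members, 2176 and 2327 reads were counted in the WT libraries and 10762 and 13064 in the Mek1/2-tKO libraries, which is 112 and 121 CPM against 694 and 695 CPM. The groups did not overlap, and the Mek1/2-tKO replicates were nearly equal. The log2 fold change was 2.59 (SE 0.08, adjusted p = 1.06e-11). Among all rows of the fit with Ighv reads summed by family, 19.1% were called higher. In bulk libraries a larger number of B-lineage cells and more heavy-chain RNA per cell cannot be told apart. Pseudogenes by the GENCODE type took 0.17 to 0.87% of the Ighv reads in every library, and the rest lay on segments typed there as V genes. RefSeq types 2 of these V genes, Ighv7-1 and Ighv7-3, as pseudogenes. Ighv7-3 had 48 and 43 counts in WT and 163 and 265 in Mek1/2-tKO.

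The increase ran through nearly every family. Of the 14 families tested, 13 were called higher, and in those 14 both Mek1/2-tKO libraries lay above both WT libraries, as they did in 39.5% of all rows of that fit. Ighv1 took 58.7 and 66.8 CPM in WT and 382 and 367 CPM in Mek1/2-tKO, a log2 fold change of 2.58 (SE 0.09, adjusted p = 3.16e-11). Ighv5 and Ighv2, whose members lie mostly at the D-proximal end, rose by similar amounts, 2.60 (SE 0.14) and 2.39 (SE 0.15). Ighv14, Ighv10, Ighv6, Ighv7 and Ighv3 rose with log2 fold changes of 2.64, 2.74, 2.87, 2.48 and 2.19, respectively. The largest change was that of Ighv4, at 1.49 and 0.42 CPM in WT and 14.6 and 19.2 CPM in Mek1/2-tKO (4.14, SE 0.36, adjusted p = 4.56e-07), followed by Ighv9, at 5.95 and 5.60 against 58.7 and 48.8 CPM (3.22, SE 0.15, adjusted p = 9.10e-10). Ighv8, Ighv11 and Ighv13 had the smallest called changes, 1.86, 1.78 and 1.68. The call of Ighv13 was lost without WT replicate 2 (1.21, adjusted p = 0.101) and without Mek1/2-tKO replicate 1 (1.33, adjusted p = 0.117).

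**Figure D1:**
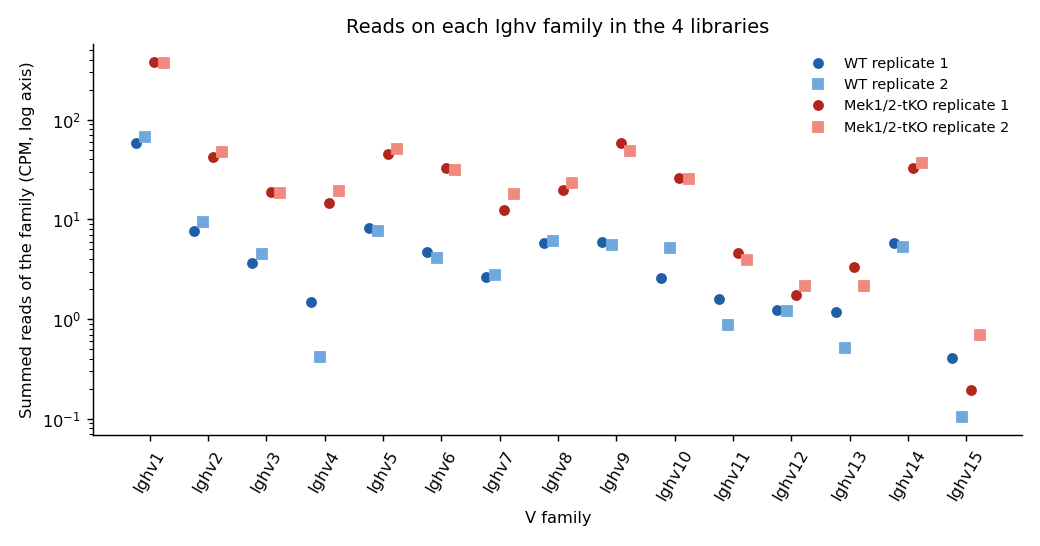
Summed reads of each V family in CPM on a log axis (vertical) for the 15 families with reads (horizontal), with a point for each library, circles for replicate 1 and squares for replicate 2. The Mek1/2-tKO points lie above both WT points in every family except Ighv15, and for Ighv12 the gap is small.

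Ighv12 stood out because its reads did not pass the test. It had 24 and 23 counts in WT and 27 and 40 in Mek1/2-tKO, or 1.23 and 1.19 against 1.74 and 2.13 CPM, and its log2 fold change was 0.68 (SE 0.47, adjusted p = 0.236). All but 1 of these reads lay on Ighv12-3. Ighv15 had 8 and 2 counts in WT and 3 and 13 in Mek1/2-tKO, which was too few to be tested, and Ighv16, a family of a single V gene, was at 0 in all libraries. A count of 0 allows a share of up to 0.138% of the Ighv reads in the shallowest library and 0.023% in the deepest, counting error only.

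To see whether families changed in proportion, usage was taken as the share of a library's Ighv reads that fell on a family. These shares sum to the whole, so a rise in some families lowers the rest. Ighv1 usage did not differ beyond the spread between replicates: 52.6% (95% Wilson interval 50.5 to 54.7) and 55.4% (53.4 to 57.4) in WT and 55.0% (54.0 to 55.9) and 52.8% (52.0 to 53.7) in Mek1/2-tKO, with overlapping groups and a log2 usage ratio of -0.003 (SE 0.08, adjusted p = 0.979). Ighv5 at 6.88% ± 0.67 (SD, n = 2) against 6.92% ± 0.47, Ighv14 at 4.83% ± 0.57 against 5.0% ± 0.46, and Ighv7 at 2.36% ± 0.05 against 2.19% ± 0.57 also overlapped. The intervals cover counting error only. Shares overlapped between genotypes in 7 of the 15 families with reads. Over all rows of the family fit, the CPM of the genotypes did not overlap, in either direction, in 78.2%, which is a share for levels and not for usage.

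Usage was called different for 4 of the 14 tested families, with the quasi-likelihood test offset by each library's Ighv total. The other rows of that fit kept their library-size offset, and 35.3% of all its rows were called in either direction. The number of families called is no larger than that share. Outside the Ighv rows, though, the share counts changes in level and not in usage, so it gives no background rate for usage. Ighv9 rose from 5.33% (4.46 to 6.36) and 4.64% (3.86 to 5.57) to 8.46% (7.94 to 9.0) and 7.02% (6.59 to 7.47), a 1.55-fold increase (log2 0.63, SE 0.15, adjusted p = 0.00322). Ighv4 rose from 1.33% (0.93 to 1.91) and 0.34% (0.17 to 0.68) to 2.10% (1.85 to 2.39) and 2.76% (2.49 to 3.05), 2.94-fold (log2 1.56, SE 0.39, adjusted p = 0.00368). In both families the genotypes did not overlap, but the WT replicates of Ighv4 differed by more than their intervals. The main Ighv4 segment, Ighv4-1, had 8 counts in WT replicate 2. Ighv4 therefore dropped out where segments needed at least 10 counts in every library. Exact permutation tests on the shares of 2 against 2 libraries cannot go below p = 0.33, which is the value for each family without overlap.

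Ighv8 and Ighv12 took a smaller share of the Ighv reads in Mek1/2-tKO. Ighv8 went from 5.15% (4.30 to 6.16) and 5.03% (4.21 to 5.99) to 2.82% (2.52 to 3.15) and 3.31% (3.02 to 3.64), 1.66-fold lower (log2 -0.73, SE 0.18, adjusted p = 0.00359). Ighv12 went from 1.10% (0.74 to 1.64) and 0.99% (0.66 to 1.48) to 0.25% (0.17 to 0.36) and 0.31% (0.22 to 0.42), 3.72-fold lower (log2 -1.90, SE 0.48, adjusted p = 0.00408). The replicates of each genotype lay close together in both families. Ighv11, the other family with a known link to B-1 cells, took 1.42% and 0.73% in WT and 0.66% and 0.57% in Mek1/2-tKO, a log2 usage ratio of -0.81 (SE 0.42) that did not pass the test (adjusted p = 0.117). Ighv11 passed without WT replicate 2 (-1.22, adjusted p = 0.0315), and without WT replicate 1 the ratio was -0.25 (adjusted p = 0.747).

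The calls for Ighv8, Ighv12 and Ighv4 held when any single library was left out, although leaving out WT replicate 1 gave a ratio of 2.82 for Ighv4 and leaving out WT replicate 2 gave 0.87. The Ighv9 ratio fell below a 1.5-fold change without WT replicate 2 (log2 0.54) and without Mek1/2-tKO replicate 1 (0.50). When the most abundant segment of each family was left out, which for Ighv9 was Ighv9-3, the Ighv9 ratio was 0.36 (adjusted p = 0.458).

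**Figure D2:**
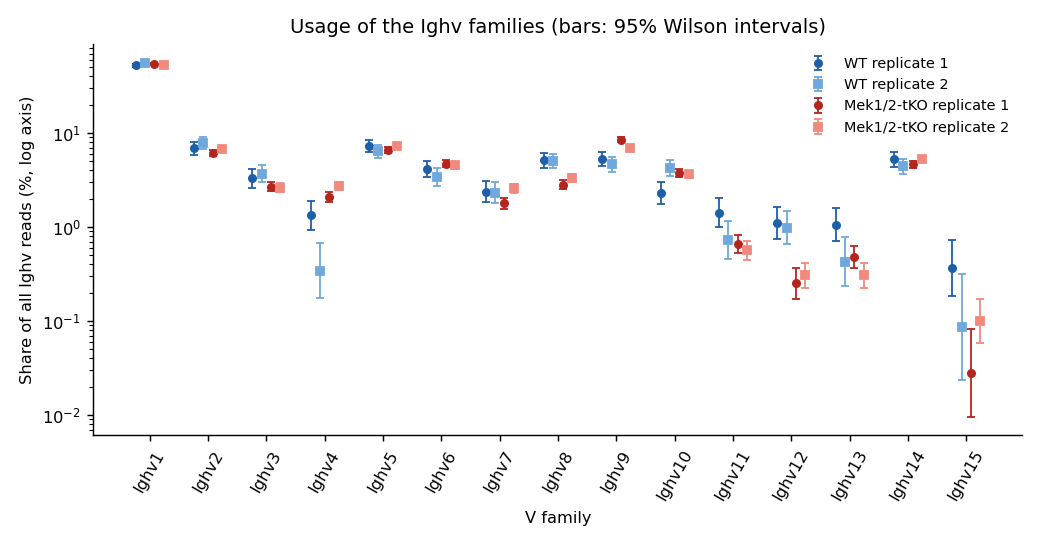
Share of all Ighv reads taken by each family (vertical, percent, log axis) in each library, with 95% Wilson intervals as bars, circles for replicate 1 and squares for replicate 2. Ighv4 and Ighv9 lie higher and Ighv8 and Ighv12 lower in both Mek1/2-tKO libraries, whereas Ighv1 stays between 52.6 and 55.4% in all 4.

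At the level of single segments, 86 members passed the filter on low counts, 84 of them V genes. Of these, 83 were called higher, 0 lower and 3 were not called, beside 19.3% called higher, 16.4% lower and 35.8% in either direction among all 14330 genes tested. Every tested segment had a positive log2 fold change, so the number lower was also 0 at an unadjusted p below 0.05, and DESeq2 called 0 lower too. This count is a description only: 52 of the 86 had at least 10 counts in both WT libraries, and a segment that passed the filter through the Mek1/2-tKO libraries had to be higher there. The median log2 fold change was 2.62, and 2.59 with the 2 segments at 0 in both WT libraries set to their lower bound, against 0.02 over all genes tested.

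Ighv9-3 and Ighv1-26 were the leading segments, also when counts were divided by exon length. Ighv1-26 had the most reads of any segment in both WT libraries, 108 and 118 counts, and rose to 522 and 591 (log2 fold change 2.48, SE 0.16, adjusted p = 2.49e-08), close to the 2.58 of its family. Ighv9-3 went from 90 and 96 counts to 809 and 758, the most of any segment in both Mek1/2-tKO libraries (3.27, SE 0.17, adjusted p = 3.52e-09). Its usage rose from 4.14% and 4.13% to 7.52% and 5.80%, a 1.61-fold increase (log2 0.69, SE 0.17, adjusted p = 0.00395), which without Mek1/2-tKO replicate 1 was 0.49 and below the fold threshold. Ighv9-3 made up 77.6 to 88.9% of the reads of its family in all libraries.

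The other segments among the 10 with the most reads were Ighv1-64, Ighv6-3, Ighv1-53, Ighv1-82, Ighv1-80, Ighv1-72, Ighv2-2 and Ighv1-9. Their log2 fold changes lay between 2.18 (Ighv1-82) and 3.18 (Ighv1-72), and none of the 8 was called in usage. Ighv1-72 came closest, with a log2 usage ratio of 0.59 (adjusted p = 0.0531) that passed without WT replicate 1 (0.97, adjusted p = 0.00625) and without Mek1/2-tKO replicate 1 (0.68, adjusted p = 0.0436). Within Ighv1, all 45 tested segments were called higher, beside 19.3% of all genes tested. This count too is a description, since a segment that passed the filter through the Mek1/2-tKO libraries had to be higher there. Log2 fold changes ran from 1.52 (Ighv1-5) to 4.03 (Ighv1-36) among the 43 that were counted in WT.

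**Figure D3:**
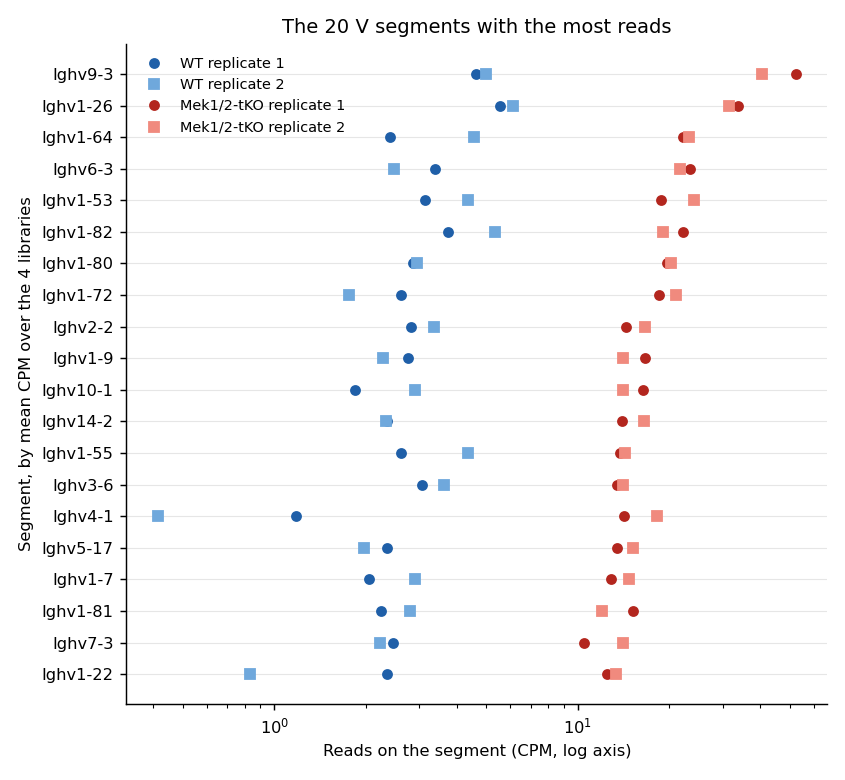
CPM (log axis, horizontal) of the 20 segments with the highest mean over the 4 libraries (vertical), circles for replicate 1 and squares for replicate 2. In each segment both Mek1/2-tKO points lie to the right of both WT points, with Ighv9-3 leading in Mek1/2-tKO and Ighv4-1 lowest in WT.

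Usage was called for 7 single segments, 5 higher and 2 lower, and 17 of the 86 were at an unadjusted p below 0.05. Of all rows of that fit 35.2% were called, where rows other than Ighv kept their library-size offset. The split into 5 and 2 is a description only. A segment that passed the filter only through the Mek1/2-tKO libraries was selected for being high there. Ighv4-1, which supplied 79.3 to 100% of the Ighv4 reads, had 23 and 8 counts in WT and 220 and 344 in Mek1/2-tKO, and its usage rose 3.38-fold (log2 1.76, SE 0.37, adjusted p = 0.00116). Leaving out WT replicate 1 gave 2.76, and leaving out WT replicate 2 gave 1.15, both still called. Ighv1-19 went from 23 and 25 counts to 193 and 214, with usage 1.61-fold higher (log2 0.68, SE 0.27, adjusted p = 0.0487), and the call was lost each time a library was left out (0.62 to 0.75, adjusted p = 0.0677 to 0.142). The remaining 2 had under 100 counts in all: Ighv3-1 had 1 and 0 counts in WT against 31 and 42, and Ighv1-31 had 0 and 0 against 11 and 25, at least 6.60-fold higher in CPM against a floor of 3 counts in each WT library.

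The segments whose usage fell were Ighv12-3 and Ighv8-8. Ighv12-3 had 24 and 23 counts in WT and 27 and 39 in Mek1/2-tKO, and its usage was 3.78-fold lower (log2 -1.92, SE 0.48, adjusted p = 0.00403). Ighv8-8 had 51 and 52 counts in WT and 116 and 145 in Mek1/2-tKO, so its reads rose (log2 fold change 1.52, SE 0.27) while its share went from 2.34% and 2.23% to 1.08% and 1.11%, 2.09-fold lower (log2 -1.06, SE 0.27, adjusted p = 0.00433). Ighv8-12, the segment with the most reads in Ighv8, had 49 and 53 against 160 and 208 counts, and its usage ratio of -0.56 did not pass (adjusted p = 0.0684). Ighv12-3 and Ighv8-8 held their calls without each library in turn.

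The 3 tested segments that were not called in expression were Ighv12-3, Ighv2-6-8 with 4 and 10 against 20 and 14 counts, and Ighv5-15 with 0 and 10 against 2 and 17. Among segments with at least 50 counts in the higher replicate, replicates of a genotype differed most for Ighv8-5, at 11 and 57 counts in the Mek1/2-tKO libraries, a 4.27-fold difference in CPM. Its call (log2 fold change 2.02, adjusted p = 0.0266) was lost without Mek1/2-tKO replicate 2 (0.60, adjusted p = 0.690) and without WT replicate 1 (1.86, adjusted p = 0.0548). Ighv5-12 with 52 and 22, Ighv7-1 with 22 and 62, Ighv1-20 with 64 and 34 and Ighv14-1 with 41 and 108 counts in Mek1/2-tKO replicates 1 and 2 followed. The call of Ighv5-12 was lost without WT replicate 1 (1.61, adjusted p = 0.0632) and without Mek1/2-tKO replicate 1 (1.40, adjusted p = 0.268), and that of Ighv7-1, the segment of the classical phosphorylcholine response, without Mek1/2-tKO replicate 2 (2.57, adjusted p = 0.0520).

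Position along the locus was not used by the rule. With members ordered from the D-proximal to the distal end and divided into 3 stretches of 62, 62 and 61 members, the proximal stretch (Ighv5-1 to Ighv3-7) took 33.1% and 30.2% of the Ighv reads in WT and 32.7% and 34.8% in Mek1/2-tKO. The middle stretch took 30.6% and 29.5% against 31.4% and 29.6%, and the distal stretch 36.3% and 40.4% against 35.9% and 35.7%. In the first and second stretches the groups overlapped (exact permutation p = 0.667 for each), and in the distal stretch they did not (exact p = 0.33, the smallest possible). The distal stretch held only members of Ighv1 and Ighv8, so its share is not separate from the shares of those families. The median log2 fold change of tested segments was 2.56, 2.68 and 2.53 in the 3 stretches, and Spearman's rho of the change with order was 0.006 across the 86 segments, which share the 4 libraries.

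**Figure D4:**
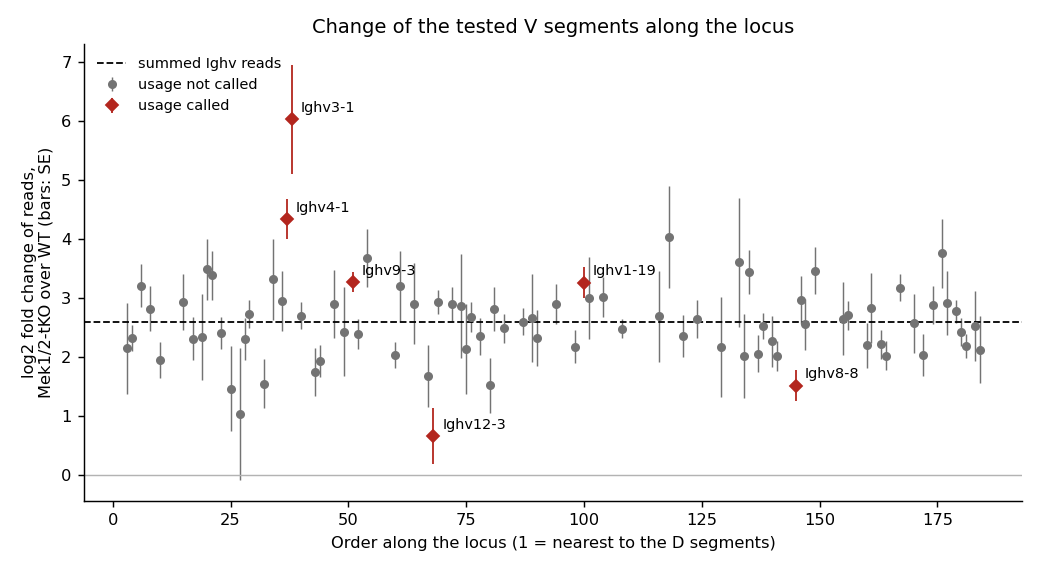
Log2 fold change of reads, Mek1/2-tKO over WT, with its SE (vertical) against the order of the segments along the locus, 1 being nearest to the D segments (horizontal), for the 84 tested segments with reads in WT. Red diamonds mark segments called in usage, and the dashed line is the 2.59 of the summed Ighv reads, around which the segments scatter along the whole locus.

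How evenly the segments were used was close between the genotypes. The effective number of segments, the exponential of the Shannon entropy of the shares, was 61.5 and 58.6 in WT and 60.3 and 62.9 in Mek1/2-tKO, with overlapping groups (difference 1.54, exact permutation p = 0.667). More segments were seen in Mek1/2-tKO, 109 and 112 against 92 and 91, but with a larger number of Ighv reads. After thinning each library to 2176 Ighv reads, 92.0 and 91.0 segments were expected in WT and 98.3 and 100.5 in Mek1/2-tKO (exact p = 0.33, the smallest possible). The 10 most used segments held 31.0% and 35.3% of the reads in WT and 35.1% and 34.0% in Mek1/2-tKO.

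The distance between usage profiles, taken as the share of reads that would have to move to another segment to make 2 libraries equal, was 17.1% between the WT replicates and 9.08% between the Mek1/2-tKO replicates. Between genotypes it was 16.3 to 19.0%, a range that includes the value for the WT replicates. At family level the distances were 6.13% and 4.14% between replicates and 5.36 to 8.22% between genotypes. Counting error adds to such distances, more so with fewer reads, and its part was not tested.

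V reads were next set against the constant exons of the same chain and other B-lineage transcripts. Ighm rose with a log2 fold change of 2.17 (SE 0.08) and Ighd, which naïve B cells make together with Ighm, with 3.68 (SE 0.09). There were 16.1 and 18.0 Ighv reads for every 100 Ighm reads in WT and 22.7 and 22.5 in Mek1/2-tKO, a ratio of 1.33 (exact permutation p = 0.33, the smallest possible). Gene counts do not show which constant-exon reads came from transcripts that carried a V segment. Against Cd79a, which encodes a signalling chain of the B-cell receptor, the Ighv reads moved the other way, from 197 and 205 to 110 and 113 for every 100 reads. Against Ms4a1, which encodes CD20, they went from 101 and 114 to 142 and 155. The groups did not overlap in any of these ratios, for which the exact permutation p of 0.33 is the smallest possible. Fitted log2 fold changes were 3.43 (SE 0.08) for Cd79a, 2.12 (SE 0.08) for Ms4a1 and 2.59 (SE 0.08) for the summed Ighv reads. By these fitted values, B-lineage transcripts did not all change by the same factor.

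**Figure D5:**
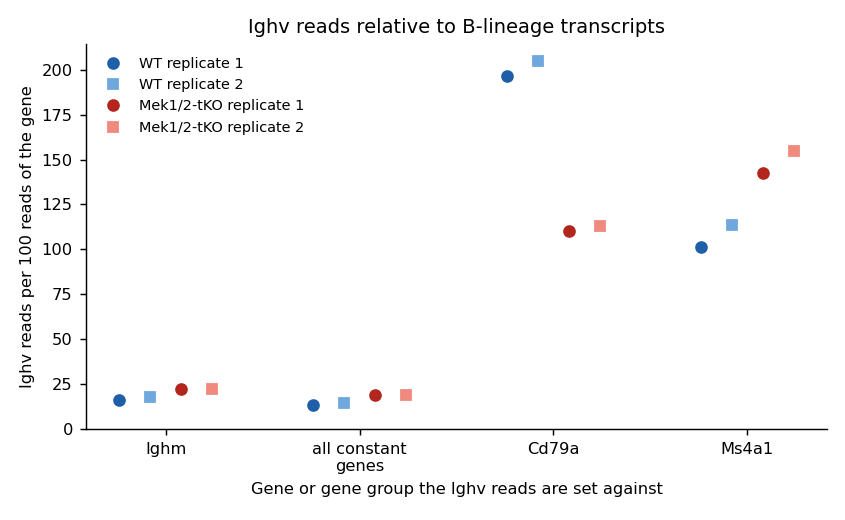
Ighv reads for every 100 reads of Ighm, of all 8 heavy-chain constant genes, and of the B-lineage genes Cd79a and Ms4a1 (vertical, linear axis from 0), with a point for each library. The Mek1/2-tKO points lie above the WT points for Ighm, the constant genes and Ms4a1, and below them for Cd79a.

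The makeup of the constant exons differed as well. Of the 8 constant genes, 6 were called higher and 2 lower, beside 19.3% and 16.4% of all rows of the fit with segments as rows. Ighd made up 3.71% and 3.32% of the constant-exon reads in WT and 10.1% and 10.3% in Mek1/2-tKO, while Ighm stayed at 82.3 to 85.2%. Ighg1 fell from 858 and 894 counts to 205 and 339 (log2 fold change -1.52, SE 0.15, adjusted p = 1.53e-06). Ighe had 55 and 70 counts in WT and 0 and 0 in Mek1/2-tKO, at least 18.3-fold lower in CPM against a floor of 3 counts in each Mek1/2-tKO library. Igha rose from 31 and 23 to 295 and 477 counts (3.99, SE 0.25, adjusted p = 1.98e-08). Of the 4 J segments only Ighj4 had enough reads to be tested, with 5 and 16 counts in WT and 18 and 18 in Mek1/2-tKO (0.95, SE 0.68, adjusted p = 0.256). Ighv reads cannot be assigned to an isotype in these counts, nor can constant-exon reads be assigned to transcripts with a V segment.

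Other B-lineage genes were higher as well. Of 20 B-cell receptor and B-lineage genes tested, of 21 listed, 19 were called higher (19.3% of all rows were), with a median log2 fold change of 2.10, and Pou2af1, a B-cell coactivator also made by Tfh cells, was at 0.42 and below the fold threshold. Their summed level was 1045 and 1060 CPM in WT and 5140 and 5175 CPM in Mek1/2-tKO. Of 8 tested plasma-cell genes 4 were higher, against the same 19.3%, among them Jchain (4.54, SE 0.15), whereas Sdc1 and Prdm1 did not pass. Among 11 genes of recombination and antibody diversification, the recombinase genes were at or near 0, with Rag1 at 0, 0, 2 and 2 counts and Rag2 at 0 throughout, and the surrogate light-chain genes Igll1 and Vpreb2 were at 0 as well, and the third, Vpreb1, had 0 and 2 counts in WT and 0 and 6 in Mek1/2-tKO. Of the 6 tested in this group none was higher and 1 was lower, beside 19.3% and 16.4% of all genes. The lower gene was Lig4, a DNA ligase of end joining (-0.72, adjusted p = 0.0223). Of 13 factors that act on octamer and enhancer elements of the locus, 3 were higher (Tcf4, Spi1 and Ikzf3), 2 lower (Pou2f1 and Irf4) and 8 did not pass, counts near the 19.3% and 16.4% of all genes called higher and lower.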

How the data were processed

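Counts per gene were deposited for 2 WT and 2 Mek1/2-tKO libraries of stranded mRNA. Per the labels and methods, the authors trimmed reads with Trimmomatic 0.36, mapped them to GRCm38, and counted uniquely mapped reads with featureCounts (Subread 1.5.1). Which gene annotation was counted, and whether strand was used, is not given in the sources used here. No normalization had been applied to the deposited counts.

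Symbols were found for 54723 of 54752 identifiers. The members and gene lists were chosen with earlier results of these data known. The edgeR 4.0.16 quasi-likelihood test (robust, filterByExpr, TMM factors, R 4.3.3) was run with segments, family sums or their total as rows. P-values were adjusted by Benjamini-Hochberg over all rows, and a call needed an adjusted p below 0.05 and a fold change of at least 1.5. For usage, the offset of Ighv rows was the library's Ighv total. Shares have 95% Wilson intervals, and exact permutation tests are two-sided. CPM used TMM-scaled library sizes. Totals were 18858860 and 18807774 counts (WT) and 16330802 and 18931090 (Mek1/2-tKO). Intervals and floors cover counting error only, since reads are not independent molecules. Scripts were tested on simulated data. Alternatives were DESeq2 1.42.0, other size factors, other filters, a 2-fold threshold, other member sets and single libraries left out.

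Segments named were the 10 with the highest mean CPM, the leading segment of each family, those called in usage with at least 100 counts (and, after their values were seen, the 2 with fewer), the 5 least alike between replicates with at least 50 counts in the higher one and those tested but not called. Ighv1-5 and Ighv1-36 were named as the extremes of their family, and Ighv1-62-3 and Ighv11-1 as near-identical copies, after their values were seen. Coding sequences came from GENCODE transcripts on GRCm38. Promoter motifs were not analysed here. A ratio of Ighv reads to a further B-lineage gene is not reported here.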

Additional observations from a re-analysis of the deposited data

How the results depend on the processing

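The summed Ighv log2 fold change lay between 2.5 (library size alone) and 2.60 under the other normalizations, filters and tests, and between 2.53 and 2.64 without each library. The number of families called higher stayed at 12 or 13 of those tested under every alternative run, and was 12 to 13 without each library. Segments called higher were 83 (76 by DESeq2, 73 to 78 without each library) and 51 where at least 10 counts were required in every library, because fewer were tested. Families called higher in usage were 2, and 1 where segments needed at least 10 counts in every library, 0 without the most abundant segment of each family, and 1 to 2 without each library. Families called lower in usage were 2, and 1 without the most abundant segment of each family, where Ighv4, Ighv11, Ighv12 and Ighv13 could not be fitted, and 2 to 4 without each library. Without WT replicate 2 the added families were Ighv11 and Ighv13 (-1.43, adjusted p = 0.0442), and Ighv10 was called higher there (0.68, adjusted p = 0.0315) in place of Ighv9. Segments called higher in usage were 5, and 3 with at least 10 counts in every library (2 of them shared with the 5), and 3 to 9 without each library, the highest without WT replicate 1. Those called lower were 2, and 2 to 6 without each library, the highest without WT replicate 2. The difference in the effective number of segments was 1.54, became -1.71 with segments of at least 10 counts in every library, and was 0.118 to 2.95 without each library. The difference in Ighv reads for every 100 Ighm reads was 5.54, and 4.57 to 6.52 without each library.

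The labels do not say whether replicate numbers pair the samples. Deviations of same-numbered libraries correlated at -0.0262 over 14330 genes, a single value from 2 libraries per genotype that cannot settle this. With the replicate block the summed log2 fold change was 2.59, 13 families and 80 segments were called higher, and 2 families were called in each direction in usage. The block left 3 segments called higher in usage, all among the 5, and 2 called lower.

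With 2176 and 2327 Ighv reads in WT, 58 and 62 segments reached 10 counts there, so depth limits what can be said of the usage of rarer segments. The calls for Ighv13-2 follow those of its family.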
